A study of Mus musculus with 8 samples.

Results

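Genes of the luminal epithelial surface and of secretory granules were described across colon tumours of 4 knockout (KO) and 4 wild-type (WT) mouse libraries. There were 6 of them, Lypd8, Pigr, Dmbt1, Cdhr5, Mep1a and Sycn, of 1428 genes in the deposited table. They were selected on their measured values and their roles: each stands in a table whose genes all have an unadjusted p below 0.05 between KO and WT (the highest is 0.0499919), and each is higher in KO. The difference between KO and WT is therefore a description for these genes and was not tested.

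The KO libraries came from C57BL/6N mice labelled miR-29ab1Vilin-KO, in which the microRNA cluster miR-29ab1 was disrupted in the intestinal epithelium. The WT libraries came from C57BL/6N mice labelled Wildtype; the sources used here do not give whether these carried a floxed allele or a Cre. Tumours had been brought on in both groups by azoxymethane, a chemical carcinogen, together with dextran sodium sulfate, an agent that damages colonic epithelium. The sources used here give neither age nor whether each library came from a separate animal, and the spread between libraries may be technical. Villin, whose name the KO label carries, is a microvillus protein, and its promoter is widely used to direct deletion to the gut epithelium; other cells of the tumour would keep the microRNAs. No listed gene name holds Mir29 (0 of 1428), so the deletion could not be checked. Values are gene counts divided by a size factor for each library (normalized counts). Over the listed genes they corresponded to 1202677 to 2180787 whole reads in the 7 libraries whose reads were recovered, which is not the library depth. The labelled tissue could be checked little: of 7 absorptive colonocyte and 6 epithelial markers none was listed. Of 16 broader epithelial genes Lgals4 alone was, where 7.06% of 19985 genes were listed.

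The surface of the colon is a layer of polarised cells whose apical membrane is folded into microvilli, the brush border. Adhesion proteins join the tips of microvilli, and proteases sit on their surface. The same cells carry antibody into the lumen and release proteins that bind bacteria, so that microbes are kept away from the membrane. As absorptive cells mature and move up the crypt, they take on this equipment and leave the cell cycle.

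The microRNAs of the deleted cluster are shown because they define the KO group. Mature mouse miR-29a-3p and miR-29b-3p are given from RefSeq with the build GRCm38.p6, at chr6:31062673-31062694 and chr6:31063025-31063047, both on the minus strand. Capitals mark the seed, bases 2 to 8, which they share.
miR-29a-3p: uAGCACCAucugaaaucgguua
miR-29b-3p: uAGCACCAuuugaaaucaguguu
The match to that seed in a transcript is TGGTGCT. It was found in the longest annotated 3′ untranslated region of 0 of the 6 genes, against 2755 of 21020 genes of the GENCODE M21 annotation (13.1%). The regions searched were short in Cdhr5 (67 bases), Sycn (126 bases), Lypd8 (347 bases) and Dmbt1 (395 bases), and longer in Mep1a (629 bases) and Pigr (1353 bases). Their median was 371 bases, against 961 bases over the 21020 genes, and a shorter region holds fewer matches of any kind.

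All 6 genes are protein-coding in the table, which uses identifiers and coordinates of the C57BL/6NJ strain. Sycn (chr7:28217526-28218851, plus strand), Dmbt1 (chr7:140804625-140919118, plus strand) and Cdhr5 (chr7:151801651-151809352, minus strand) lie on chromosome 7. Pigr lies at chr1:139227017-139252527 on the plus strand, Lypd8 at chr11:59877907-59891178 on the plus strand and Mep1a at chr17:46336451-46368793 on the minus strand.

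Lypd8 encodes a membrane-anchored protein of the colonic epithelium that is shed into the lumen and binds the flagella of bacteria. It had 110101, 101311, 109163 and 243970 normalized counts in KO replicates 1 to 4, against 78765, 98114, 76376 and 39837 in WT replicates 1 to 4. Every KO library lay above every WT library, but the lowest KO value was only 1.03 times the highest WT value. Scaling by TMM over the listed genes ended this separation, with 95763 in KO replicate 2 against 101146 in WT replicate 2. That scaling was computed only from genes chosen on the contrast, and it lowered KO values relative to WT values. KO replicates 1 to 3 lay within 1.09 times of each other, and KO replicate 4 stood 2.22 times above the next KO library. The mean was 141136 ± 68669 in KO and 73273 ± 24323 in WT (SD, n = 4 each), and Lypd8 stands at 0.95 in the log2 fold change column of the authors' deposited table. KO replicates 1 to 3 alone averaged 106858 ± 4827 (SD, n = 3), 1.46 times the WT mean.

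Pigr encodes the receptor that carries polymeric immunoglobulin A across the epithelium. It had 24061, 31633, 31877 and 105328 normalized counts in KO replicates 1 to 4, against 21430, 28432, 27391 and 16674 in WT replicates 1 to 4. The groups overlapped, since KO replicate 1 lay below WT replicates 2 and 3. The mean was 48225 ± 38242 in KO and 23482 ± 5488 in WT (SD, n = 4 each), and the log2 value for Pigr in the authors' deposited table was 1.04. The other 3 KO libraries averaged 29190 ± 4444 (SD, n = 3), 1.24 times the WT mean. Of 10 other genes of antibody transport and immunoglobulin A production, 2 were listed, against 7.06% of 19985 genes. None of them passed an adjusted p of 0.05 in the authors' deposited table. Tnfsf13b, a B cell survival factor, had 133.0, 166.1, 145.0 and 139.9 normalized counts in KO replicates 1 to 4, against 61.3, 90.4, 59.7 and 145.7 in WT replicates 1 to 4, so its KO libraries did not follow those of Pigr. The immunoglobulin A heavy chain Igha and the joining chain Jchain, which form what Pigr carries, were not listed.

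Dmbt1 encodes a large secreted scavenger receptor protein that binds bacteria. It had 70848, 79804, 106403 and 53681 normalized counts in KO replicates 1 to 4, against 55747, 50644, 62614 and 50458 in WT replicates 1 to 4. It went against the other 5 genes in KO replicate 4, which was its lowest KO library, below WT replicates 1 and 3. Its highest library was KO replicate 3. Over KO replicates 1 to 3 alone, Dmbt1 had the same order as Pigr. The mean was 77684 ± 22001 in KO and 54866 ± 5717 in WT (SD, n = 4 each), and the authors' deposited table lists 0.50 as log2 fold change. Without KO replicate 4 the 3 remaining KO libraries all lay above the WT libraries, with a mean of 85685 ± 18493 (SD, n = 3), 1.56 times the WT mean. Of 24 other antimicrobial and mucosal defence genes, 1 was listed, against 7.06% of 19985 genes, and none passed the adjusted threshold. This was Wfdc2, a secreted protease inhibitor, at 1890, 1392, 1146 and 4921 normalized counts in KO replicates 1 to 4 and at 682.9, 1057, 1079 and 420.9 in WT replicates 1 to 4. Its KO libraries all lay above its WT libraries, with the highest value in KO replicate 4, as for Lypd8 and unlike Dmbt1.

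Cdhr5 encodes a cadherin-related protein that joins neighbouring microvilli by binding Cdhr2. It had 7846, 8335, 7873 and 18826 normalized counts in KO replicates 1 to 4, against 6191, 6827, 6288 and 5470 in WT replicates 1 to 4. All KO libraries lay above all WT libraries, the lowest KO value at 1.15 times the highest WT value. Apart from KO replicate 4, Cdhr5 was the steadiest of the 6 genes, with a coefficient of variation (SD over mean) of 3.43% over KO replicates 1 to 3. The mean was 10720 ± 5408 in KO and 6194 ± 558 in WT (SD, n = 4 each), which the authors' deposited table puts at 0.79 on the log2 scale. The other 3 KO libraries averaged 8018 ± 275 (SD, n = 3), 1.29 times the WT mean.

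Among 18 further genes of microvilli and their tip links, 4 were listed, all higher in KO and all highest in KO replicate 4, and none passed the adjusted threshold. The background for being listed was 7.06% (1410 of 19985 genes), and that for KO replicate 4 being highest was 75% of the 829 genes listed higher. Cdhr2, the binding partner of Cdhr5, had 5046, 5704, 4804 and 15273 normalized counts in KO replicates 1 to 4, against 3868, 5005, 4075 and 4590 in WT replicates 1 to 4. The count of Cdhr2 over that of Cdhr5 lay between 0.610 and 0.811 in KO libraries and between 0.625 and 0.839 in WT libraries, so the ranges overlapped. Eps8, an actin-capping protein of microvillus tips, averaged 5437 ± 1453 in KO and 3544 ± 749 in WT (SD, n = 4 each). Also listed were the membrane-bound myosins Myo1d, at 5653 ± 1143 in KO against 3773 ± 627 in WT, and Myo1e, at 3479 ± 398 in KO against 2703 ± 290 in WT (SD, n = 4 each). The remaining tip-link genes on the list, among them Ush1c, Myo7b and Anks4b, were not listed.

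Mep1a encodes the alpha subunit of meprin, a metalloprotease of the brush border that is also secreted. It had 572.7, 837.0, 293.6 and 4431 normalized counts in KO replicates 1 to 4, against 251.0, 661.6, 678.6 and 204.4 in WT replicates 1 to 4. The groups overlapped: KO replicates 1 and 3 lay below WT replicates 2 and 3, and KO replicate 4 was 5.29 times the next KO library. The mean was 1534 ± 1945 in KO and 449 ± 256 in WT (SD, n = 4 each), which the authors' deposited table gives as 1.77 in log2 terms. Without KO replicate 4 the KO mean was 568 ± 272 (SD, n = 3), 1.26 times the WT mean. None of 16 other brush border hydrolases was listed, including Mep1b, the other meprin subunit, against 7.06% of 19985 genes.

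Sycn encodes syncollin, a protein of zymogen granules known from pancreatic acinar cells. It varied most, over a 79.7-fold range across the 8 libraries. It had 1591, 4662, 366 and 29148 normalized counts in KO replicates 1 to 4, against 366, 969, 2401 and 778 in WT replicates 1 to 4. KO replicate 3 was the lowest of all 8 libraries and KO replicate 4 the highest, so the KO group enclosed the WT group. The mean was 8941 ± 13591 in KO and 1128 ± 885 in WT (SD, n = 4 each), and the authors' deposited table has 2.99 as log2 fold change. Without KO replicate 4 the KO mean was 2206 ± 2213 (SD, n = 3), 1.96 times the WT mean. Of 22 other granule and zymogen genes, 1 was listed, against 7.06% of 19985 genes, and none passed the adjusted threshold. This was Ctrb1, a pancreatic chymotrypsinogen, at 2.14 and 23.5 normalized counts in KO replicates 2 and 4, the same libraries in which Sycn was highest, and at 0 in the other 6 libraries. Of the 6 pancreatic markers, Ctrb1 was the one listed, and the part of pancreatic-type transcripts in the Sycn values was not tested.

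**Figure D1:**
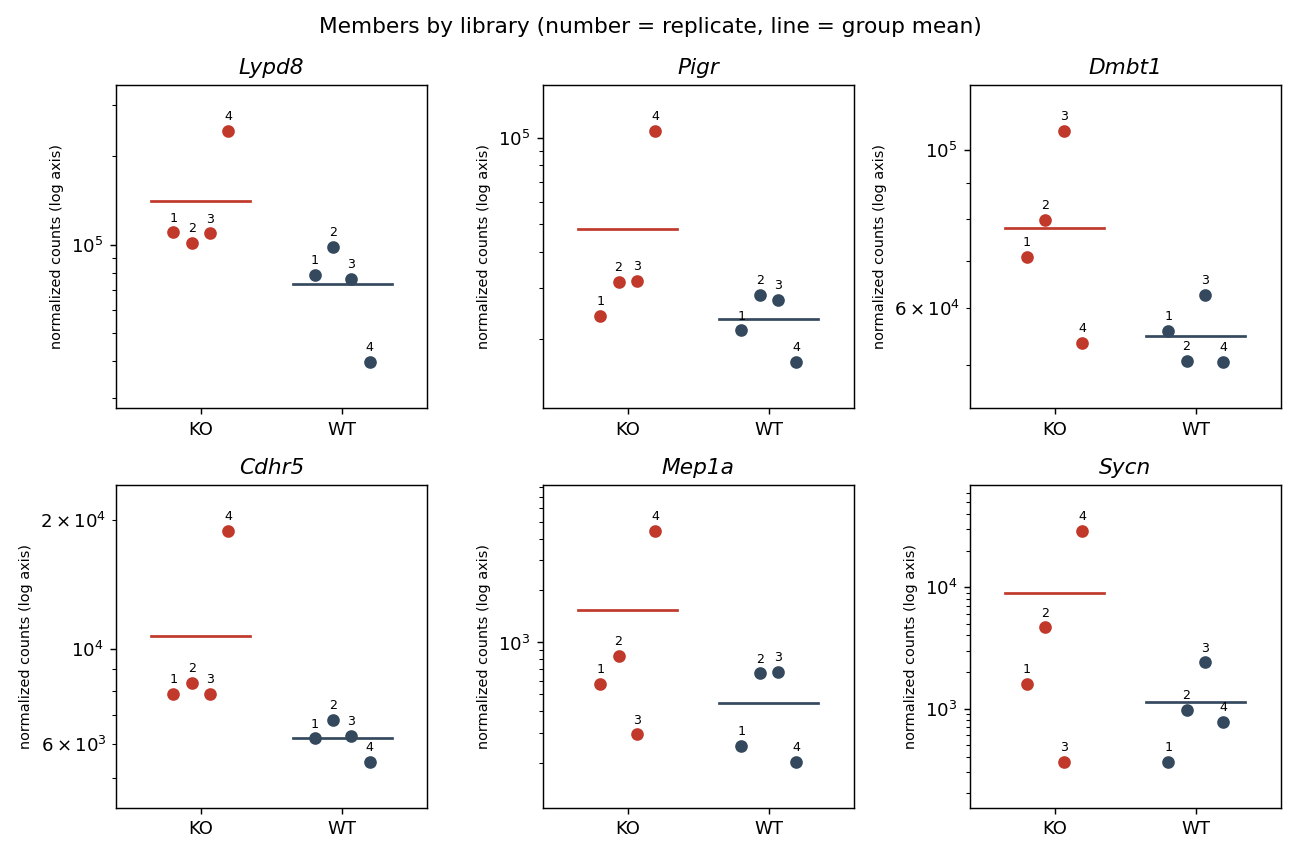
Normalized counts (log axis, scaled separately in each panel) of the 6 genes in KO and WT libraries; each point is a library with its replicate number and each line the group mean of 4 libraries. In 5 of the 6 genes KO replicate 4 is the highest of the 8 libraries, and in Dmbt1 it is the lowest KO library.

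In the authors' deposited table none of the 6 genes had an adjusted p below 0.05. The background at that threshold was 0.04%, or 8 of 19985 genes. Their unadjusted p-values there, from DESeq2, ran from 0.0129 for Lypd8 to 0.0392 for Dmbt1, and their adjusted p-values from 0.613 to 0.700. Over the 6, the log2 fold changes that the authors deposited had a median of 0.99, against 1.00 over the 829 genes listed higher. All 4 KO libraries lay above all 4 WT libraries in 2 of the 6, Lypd8 and Cdhr5, where 41.3% of the 829 genes listed higher did so. KO replicates 1 to 3 lay above all WT libraries in 3 of the 6, Lypd8, Cdhr5 and Dmbt1, against 44.9% of the genes listed higher. Since the contrast chose the genes, these shares are given as they stand. In a whole tumour, more cells of a type and more RNA per cell cannot be told apart.

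Per length, Lypd8 was the most abundant of all 1428 listed genes, at 109919 ± 53481 normalized counts per kilobase in KO and 57066 ± 18943 in WT (SD, n = 4 each). Dmbt1 followed among the 6 in WT libraries at 10086 ± 1051 per kilobase, with 14280 ± 4044 in KO. Pigr stood at 12089 ± 9587 per kilobase in KO and 5887 ± 1376 in WT, and Sycn at 16053 ± 24401 in KO and 2026 ± 1589 in WT. The order of Sycn, Dmbt1 and Pigr in KO lay within their spread. Cdhr5, at 4078 ± 2057 per kilobase in KO and 2356 ± 212 in WT, and Mep1a, at 554 ± 703 in KO and 162.2 ± 92.6 in WT, were lower, with Cdhr5 and Sycn overlapping in WT. Together the 6 genes held 15.7%, 16.1%, 18.8% and 21.3% of the normalized counts of all listed genes in KO replicates 1 to 4, against 13.8%, 14.3%, 13.7% and 9.32% in WT replicates 1 to 4.

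KO replicate 4 enlarged the difference of means in 5 of the 6 genes. It was the highest of 8 libraries in those 5, and it was so in 75% of the 829 genes listed higher. In Lypd8 and Cdhr5 the other KO libraries also lay above all WT libraries, averaging 1.46 and 1.29 times the WT mean. Relative to that mean, the values of KO replicate 4 follow. KO replicate 4 stood at 25.8 times the WT mean for Sycn, 9.87 times for Mep1a, 4.49 times for Pigr, 3.33 times for Lypd8, 3.04 times for Cdhr5 and 0.98 times for Dmbt1. The median of these 6 ratios was 3.91, against 2.94 over the genes listed higher. With KO replicate 4 left out, the median ratio of KO to WT means was 1.38 for the 6 genes, against 1.5 over the genes listed higher. WT replicate 4 was the lowest of the 8 libraries in 5 of the 6 genes, all but Sycn, and its Lypd8 value was 0.54 times the WT mean. How often WT replicate 4 was lowest over the 829 genes listed higher was not counted, so this is not given as a trait of the 6.

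**Figure D2:**
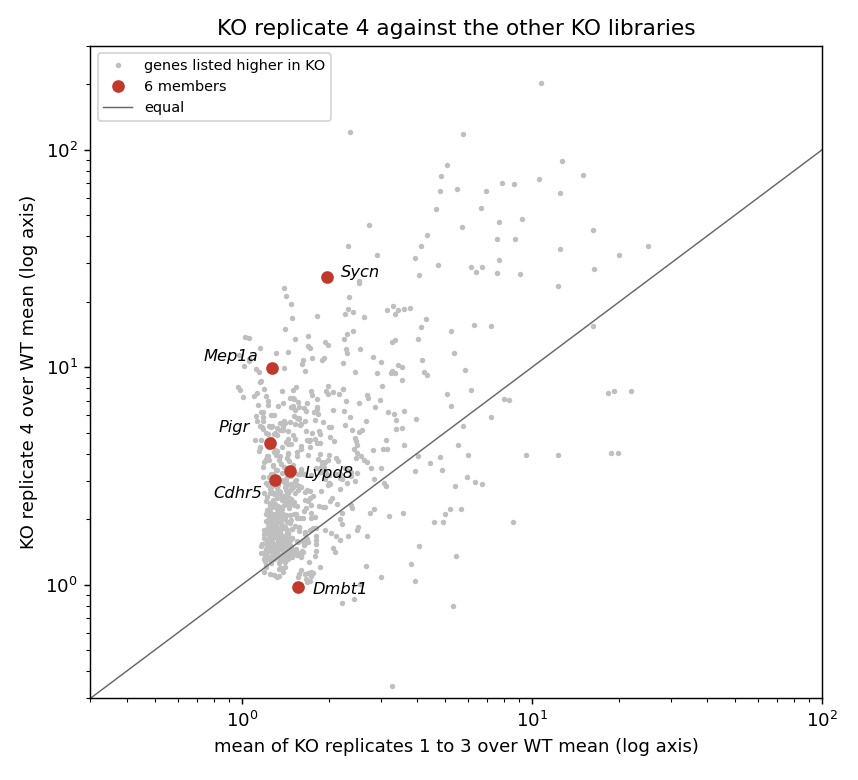
Mean of KO replicates 1 to 3 over the WT mean (horizontal, log axis) against KO replicate 4 over the WT mean (vertical, log axis) for the 796 genes listed higher in KO with values above 0 in all 3 terms; red points are the 6 genes and the line marks equal values. Dmbt1, at 1.56 and 0.98, lies below the line, and the other 5 lie above it.

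Some transcripts of other cells were also high in KO replicate 4. Of 15 B and plasma cell genes 12 were listed, all higher in KO, and 11 of them were highest in KO replicate 4. For comparison, 7.06% of 19985 genes were listed, and 829 of the 1428 listed genes were higher in KO. KO replicate 4 was highest in 75% of those 829. The summed level of the 12 genes was 261 to 3540 normalized counts in KO libraries, with the 3540 in replicate 4, and 138.7 to 323.7 in WT libraries. Pax5, a B cell transcription factor, was at 0 in WT replicate 2. Within KO the sum ran in the order of replicates 4, 2, 3 and 1, while Sycn and Mep1a ran in the order 4, 2, 1 and 3. Of 8 genes of a follicle epithelium list, Spib was listed higher and Tnfaip2 lower. Spib was at 451.1 in KO replicate 4 and at most 117.9 in the other KO libraries. Within KO it ran in the order of the B and plasma cell sum, and which cells it came from was not tested. The part of B cells, plasma cells and follicle epithelium in the values of the 6 genes was not tested. None of 27 markers of other cell types, among them Ptprc, Col1a1 and Myh11, was listed.

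The 6 genes were compared by the order in which they ranked the libraries. Within groups there are 12 pairs of libraries, 6 in KO and 6 in WT, and comparing only these leaves out the KO to WT difference on which the genes were chosen. Pigr and Cdhr5 ordered 11 of the 12 pairs alike, and so did Mep1a and Sycn. Cdhr5 and Mep1a ordered 10 alike. Lypd8 shared 9 of 12 with Pigr and 8 of 12 with each of Cdhr5 and Mep1a. Dmbt1 shared 4 to 7 with each of the others, fewest with Lypd8. With KO replicate 4 left out, it still shared 4 to 7, then of 9 pairs. The median over all 15 pairings was 8 of 12, against 7 of 12 (quartiles 6 and 9) over all pairings of the 479 genes listed higher with a mean of at least 100 normalized counts. Within WT alone both medians were 4 of 6, and without KO replicate 4 they were 6 and 5 of 9. Over all 28 pairs of libraries the 6 genes had a median of 20, against 22 for the 479 genes. Leaving out Dmbt1, a choice made after its values were seen, gave 9 of 12 within groups. The libraries are few and shared by all genes, so these counts describe them and carry no test.

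**Figure D3:**
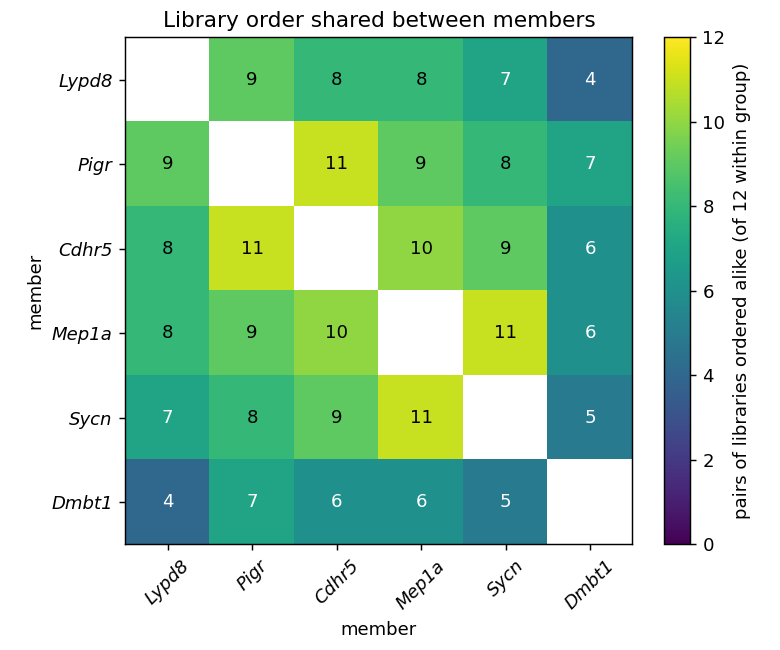
Number of within-group pairs of libraries (of 12) that both genes of a pairing order alike, shown by colour and figure. Pigr with Cdhr5 and Mep1a with Sycn reach 11, and the row of Dmbt1 runs from 4 to 7.

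The shared order did not mean a fixed ratio. Sycn over Mep1a normalized counts was 2.78, 5.57, 1.25 and 6.58 in KO replicates 1 to 4, against 1.46, 1.46, 3.54 and 3.81 in WT replicates 1 to 4. Pigr over Cdhr5 was 3.07, 3.80, 4.05 and 5.59 in KO replicates 1 to 4, against 3.46, 4.16, 4.36 and 3.05 in WT replicates 1 to 4, so the groups overlapped. Lypd8 over Dmbt1, the pair of bacteria-binding genes, was 1.55, 1.27, 1.03 and 4.54 in KO replicates 1 to 4, against 1.41, 1.94, 1.22 and 0.79 in WT replicates 1 to 4. KO replicate 4 was the highest of the 8 libraries in this ratio and WT replicate 4 the lowest.

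Genes outside the 6 that varied like their mean profile were ranked by Pearson correlation, over the 8 libraries, of their log2(normalized count + 1) with the mean of the 6 standardised profiles, among 799 listed genes with a mean of at least 100. Over the 8 libraries Dmbt1 hardly followed this mean profile, at 0.17, while the other 5 correlated with it at 0.84 to 0.96, each being part of it. Without KO replicate 4 Dmbt1 correlated at 0.68 with the mean profile, above Sycn at 0.57 and below Mep1a at 0.80. These values still hold the KO to WT difference on which all 6 genes were chosen. With the 8 libraries centred on their group means, Dmbt1 correlated at -0.54 and the other 5 at 0.82 to 0.98. The 10 most alike had correlations of 0.983 to 0.996, given as a description: Clec16a, Sned1, Slc10a5, Dopey2, Gpa33, Camta2, Hnf4g, Gid8, Pdzd7 and Arhgap21. Gpa33, a surface antigen of the intestinal epithelium, had 11427, 12014, 11301 and 18899 normalized counts in KO replicates 1 to 4, against 8684, 9342, 9786 and 7897 in WT replicates 1 to 4. Hnf4g, a nuclear receptor of enterocytes, had 168.7, 174.7, 167.3 and 512.7 in KO replicates 1 to 4, against 104.1, 119.2, 160.8 and 76.9 in WT replicates 1 to 4. Clec16a, an endosomal protein of autophagy, averaged 636 ± 124 in KO and 471.5 ± 50.9 in WT (SD, n = 4 each). In all 3 the KO libraries lay above the WT libraries, as they did in 41.3% of the 829 genes listed higher. The 3 were found by likeness to genes chosen on that contrast. Over the 7 libraries without KO replicate 4, 6 of the 10 stayed among the 10 most alike. Gpa33, Camta2, Hnf4g and Pdzd7 ranked 26, 16, 32 and 54 of 799. That ranking still holds the KO to WT difference on which the genes were chosen. With the same libraries centred on their group means, Arhgap21, Gpa33 and Clec16a ranked 2, 8 and 10, and the others 12 to 70.

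Genes of the maturing colonocyte from a list of 24 were listed in 5 cases, 4 higher and 1 lower, none past the adjusted threshold. Over 19985 genes, 7.06% were listed, and of the 1428 listed genes 829 were higher in KO and 599 lower. Hnf4a, the nuclear receptor related to Hnf4g, had 8832, 9590, 9197 and 22661 normalized counts in KO replicates 1 to 4, against 5904, 7600, 7820 and 7532 in WT replicates 1 to 4. Klf4, a factor of terminal differentiation, had 3157, 4627, 2471 and 18058 in KO replicates 1 to 4, against 2506, 3754, 4307 and 1037 in WT replicates 1 to 4, and its groups overlapped. Ceacam20, a microvillus membrane protein, averaged 2741 ± 2208 in KO and 1301 ± 454 in WT (SD, n = 4 each). The lectin Lgals4, the one epithelial identity gene listed, averaged 44476 ± 17412 in KO and 26544 ± 8759 in WT (SD, n = 4 each). Of 14 stem and cycling cell genes, 3 were listed, against the same 7.06%, all lower and none past the adjusted threshold. Their summed level was 4412 in KO replicate 4, the lowest library, and 5102 to 6372 in the other KO libraries, against 5958 to 8050 in WT libraries. Top2a held most of this sum, at 3227 in KO replicate 4. Ascl2 was lowest there too, at 644, while Birc5 was lowest in KO replicate 1, at 508 against 541 in KO replicate 4.

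**Figure D4:**
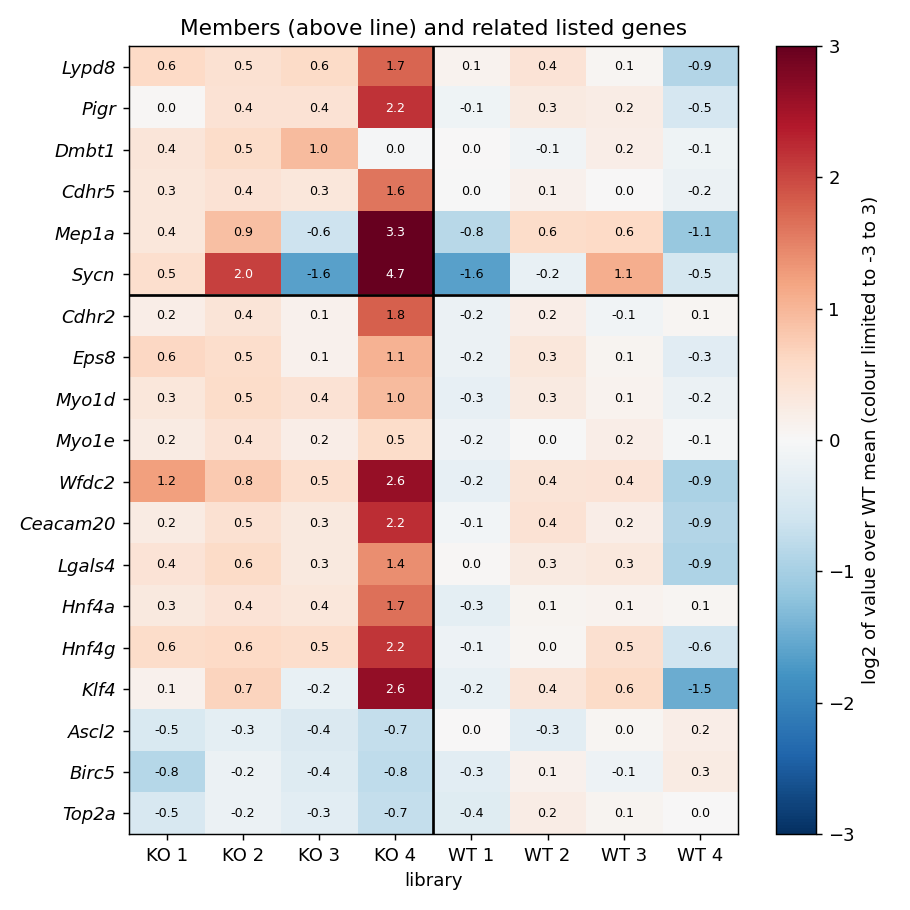
Log2 of each library's normalized count over the WT mean of that gene, for the 6 genes (above the line) and 13 related listed genes (below it); columns are KO replicates 1 to 4 and WT replicates 1 to 4, and colour is limited to the range of the bar. KO replicate 4 is high in 5 of the 6 genes and in Cdhr2, Wfdc2, Hnf4a, Hnf4g and Klf4, and low in Ascl2, Birc5 and Top2a.

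The sequences before the start of transcription are shown for the 4 genes of the closest pairings, Pigr with Cdhr5 and Mep1a with Sycn. They are from RefSeq on GRCm38.p6, 250 bases each, read 5′ to 3′ on the gene's strand: Pigr at chr1:130826434-130826683 (plus), Cdhr5 at chr7:141276787-141277036 (minus), Mep1a at chr17:43502774-43503023 (minus) and Sycn at chr7:28540635-28540884 (plus). RefSeq promoters were matched for 5 of the 6 genes, Dmbt1 being the other. Capitals mark motif matches.
Pigr: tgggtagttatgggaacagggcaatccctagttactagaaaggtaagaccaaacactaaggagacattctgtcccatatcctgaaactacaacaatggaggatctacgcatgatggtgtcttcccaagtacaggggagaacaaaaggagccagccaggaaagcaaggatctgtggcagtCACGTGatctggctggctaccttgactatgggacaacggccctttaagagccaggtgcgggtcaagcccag
Cdhr5: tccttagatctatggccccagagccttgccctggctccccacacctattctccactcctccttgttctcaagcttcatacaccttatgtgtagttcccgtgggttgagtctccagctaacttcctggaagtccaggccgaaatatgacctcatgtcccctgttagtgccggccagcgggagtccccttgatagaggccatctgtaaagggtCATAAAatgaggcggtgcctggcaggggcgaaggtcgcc
Mep1a: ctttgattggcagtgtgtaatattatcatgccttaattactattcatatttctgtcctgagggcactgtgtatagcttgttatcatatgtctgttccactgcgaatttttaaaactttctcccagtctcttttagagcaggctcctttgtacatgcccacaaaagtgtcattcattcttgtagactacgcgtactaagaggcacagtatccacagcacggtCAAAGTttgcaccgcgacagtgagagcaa
Sycn: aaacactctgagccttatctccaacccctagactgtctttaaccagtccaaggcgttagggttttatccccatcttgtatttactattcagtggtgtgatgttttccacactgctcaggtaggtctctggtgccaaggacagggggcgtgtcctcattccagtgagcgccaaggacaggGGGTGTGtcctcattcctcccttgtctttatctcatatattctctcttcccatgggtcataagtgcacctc
The motifs searched on both strands were CAAAGT (part of the element bound by HNF4 factors), TTTATG (the core of CDX sites), GGGTGTG (a box of KLF factors), CACGTG (an E-box) and TATAAA (the TATA box). None of the matches overlapped. No motif was found in more than 1 of the 5 genes. Pigr held CACGTG starting 71 bases before the start, a match found in 6.02% of 32851 promoters. Cdhr5 held the CDX core on the opposite strand, 39 bases before the start (10.8% of promoters). Mep1a held CAAAGT 29 bases before the start (12.6% of promoters), and Sycn held GGGTGTG 71 bases before the start (6.93% of promoters). TATAAA, present in 12.4% of promoters, was in none of the 5, and the 250 bases before Lypd8 held none of the 5 motifs.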

How the data were processed

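Directional libraries (NEBNext Ultra) were made from TRIzol-extracted colon tumour RNA, per the labels' protocols. Named in the submitters' processing notes are HISAT2, DESeq2 and GRCh38, a human build, whereas the table's gene identifiers belong to mouse C57BL/6NJ; the sources used here do not say how reads were counted or whether by strand. The deposited table holds, per the file headers, normalized signal (counts divided by size factors) in 8 libraries, the authors' group means, log2 fold change, p-value and adjusted p-value for 1428 genes.

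In 7 libraries every deposited value was within 0.001 of a whole number of reads after scaling (100%); WT replicate 3, whose step lies close to 1, was not counted as recovered reads, although 100% of its values met the same tolerance. The planned edgeR refit was therefore replaced by limma-trend on log2(value + 1) over 8 libraries, with edgeR and DESeq2 on the reads of the other 7 as alternatives. P-values of these fits were adjusted over 19985 genes, the number the deposited adjustment implies. In limma-trend 1027 listed genes had the deposited sign and an unadjusted p below 0.05, and 0 an adjusted p below 0.05. edgeR on 7 libraries called 895 and 0, and DESeq2 1101 and 29. Refits share the selection of the table and are no test of the 6 genes.

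Groups and replicate numbers were taken from sample titles. Means and SDs are over libraries, and no depth limit is stated. The 6 genes and the gene lists were chosen with earlier results of these data known. Named genes are the 6, the 10 most alike and listed genes of those lists, matched by exact symbol; Igha, Jchain, Mep1b and other unlisted symbols only fill a count. A few listed genes of these lists are not reported here by name. The motifs and the within-library ratios were chosen after values were seen. Software was Python 3.11.15, R 4.3.3, limma 3.58.1, edgeR 4.0.16 and DESeq2 1.42.0.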

Additional observations from a re-analysis of the deposited data

Results flagged for a closer look

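Libraries that stood far from the rest of their group were looked for in 34 genes (the 6, the 10 most alike and the listed genes of the lists other than B and plasma cells), in 2 groups of 4 libraries each. The measure is the gap between the extreme library and its neighbour over the whole range of the group, set against Dixon's critical value for 4 samples. In a group not chosen for its values, chance takes about 1 in 20 past it. Here 21 of 68 passed, 20 of them at KO replicate 4, but the genes were chosen by the KO to WT contrast or by likeness to the 6, share their libraries and are not independent, so the count is a description and is not set against that rate.

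KO replicate 4 was the high extreme in Cdhr5 (0.955), Lypd8 (0.938), Pigr (0.904), Mep1a (0.869) and Sycn (0.851), and not in Dmbt1. Among brush border and colonocyte genes it was the high extreme in Cdhr2 (0.914), Hnf4g (0.979), Hnf4a (0.945), Ceacam20 (0.947) and Klf4 (0.862), and also in Ctrb1 (0.909). Among the genes most alike, it was the high extreme in Clec16a (0.873), Sned1 (0.856), Slc10a5 (0.89), Dopey2 (0.867), Gpa33 (0.906), Gid8 (0.886), Pdzd7 (0.976) and Arhgap21 (0.863). It was the low extreme in Tnfaip2 (0.857). The WT group passed once, for a low Hnf4a value in WT replicate 1 (0.85).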

How the results depend on the processing

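The log2 ratio of the KO mean to the WT mean stayed positive in all 84 recalculations of the 6 genes, which were chosen as higher in KO. In 82 of the 84 it moved by less than 1 SD between libraries. The exceptions were Pigr, at 0.31, and Mep1a, at 0.34, both without KO replicate 4. This limit is wide, because the SD includes KO replicate 4. For Sycn the SD was 2.04, so a fall from 2.99 to 0.97 without that library stayed within it. Nor are the 84 independent, since the edgeR and DESeq2 values nearly repeat those without WT replicate 3. Leaving out 1 library at a time gave 0.54 to 1.12 for Lypd8, 0.31 to 1.26 for Pigr, 0.31 to 0.64 for Dmbt1, 0.37 to 0.91 for Cdhr5, 0.34 to 2.12 for Mep1a and 0.97 to 3.67 for Sycn. Scaling by TMM over the listed genes moved the median log2 difference of all listed genes by -0.16. Computed only from genes chosen on the contrast, it can take up part of the KO to WT difference. Values were divided by factors of 0.993 to 1.18 in KO libraries and 0.912 to 0.980 in WT libraries. With this scaling all 4 KO libraries lay above all WT libraries in 1 of the 6 genes (Cdhr5, no longer Lypd8), against 2. The share of higher genes among those below an unadjusted p of 0.05 in limma-trend was then 36.4%, against 55.9%. The limma-trend count of such genes, 1027, ran from 643 to 889 without 1 library, with 643 without WT replicate 4 and 677 without WT replicate 1. No gene passed an adjusted p of 0.05 in limma-trend or in edgeR on 7 libraries; DESeq2 on 7 libraries called 29; both 7-library fits were added after the data were seen. Nothing states that KO and WT libraries of 1 number were paired, and their deviations correlated at -0.24 to 0.054. With the replicate block, limma-trend put 650 genes below an unadjusted p of 0.05. In a balanced design the block cannot move the differences of the 6 genes; the standard error of Lypd8 was 0.457 (log2) with it and 0.362 without it. edgeR and DESeq2 fits over all 8 libraries, and edgeR with a block, were not run because the reads of WT replicate 3 were not counted as recovered.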
